A study of Homo sapiens with 4 samples.

Results

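Baseline gene expression was compared between 2 human colorectal cancer cell lines, LS174T and HCT116, on the array titled LS174T-siVec and the array titled HCT116-Vec. The comparison used 2 of the 4 arrays of a study of the homeobox gene CDX1 and the keratin gene KRT20. By their titles, the arrays covered each of these lines with and without a change in CDX1. The other arrays, LS174T-siCDX1 and HCT116-CDX1, served here as a second look at the same cell lines. The CDX1 probe set read 8.21 in HCT116-Vec and 8.24 in HCT116-CDX1, so in HCT116 the change is known from the label only. Each name had 1 array of total RNA, so the baseline difference has no replicate check and no p-value. LS174T-siVec was read as LS174T with a control vector for silencing, and HCT116-Vec as HCT116 with an empty vector. The vectors, how they were delivered, the time after delivery and whether an array was 1 clone or a pool are not known here. The 2 controls therefore differ in their vector as well as in the cell line, and these cannot be told apart on the baseline arrays. The arrays give RMA expression as log2, where a difference of 1 is 2-fold. Probe sets named for 1 gene entered, and a gene with several was represented by the brightest of them on average. It counted as measured where the brighter of the 2 baseline arrays reached 6, which 17043 of 19775 genes did, through 32891 probe sets. "Higher" in counts below means a measured gene that differed at least 2-fold. Where the dimmer level lay under 6, the fold is given as "at least", against a level of 6.

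LS174T and HCT116 are both established lines from colon carcinomas. LS174T is known for making mucus, as goblet cells of the gut do, whereas HCT116 is known as a poorly differentiated line. In the colon, stem cells at the crypt base are kept by Wnt signalling, and their daughters become absorptive or secretory cells under factors that include CDX1 and CDX2. Loss of epithelial adhesion with gain of cytoskeletal and caveolar genes is known from tumour cells of a mesenchymal kind.

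The labelled tissue was checked through 10 markers of colorectal epithelium that had a probe set. EPCAM, an adhesion molecule of epithelial cells, was at 13.24 in LS174T-siVec and 12.82 in HCT116-Vec, and the simple keratin genes KRT8 and KRT18 were at 13.02 and 13.61 against 12.47 and 13.37. Both arrays thus carried epithelial markers at high levels. Lineage markers of the intestine divided the lines. In HCT116-Vec CDH17, LGALS4 and VIL1 stood at 6.19, 6.36 and 7.04, where RNA of absent cell types also reads: 50 markers of blood, stromal, pancreatic and liver cells had a median of 6.86 in LS174T-siVec and 6.84 in HCT116-Vec, with highest values of 9.01 and 9.14. LYZ, a blood marker that Paneth cells also make and that read 11.25 in LS174T-siVec, was left out of these 50 with its value known. A level between 6 and 8 is therefore no sign that a gene is expressed, and folds against such a level may be too small. In these bulk cultures fewer cells of a type and less RNA per cell cannot be told apart.

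The lines differed at many genes. Of the 17043 measured genes 1028 were higher in LS174T-siVec (6.03%) and 1250 in HCT116-Vec (7.33%), together 13.4%. Counts of list members below are to be read beside these shares. The median difference over all measured genes was 0.01, and the central 95% ran from -2.0 to 1.71. Within a line, between the control array and the array labelled for changed CDX1, that range was -0.68 to 0.49 in LS174T and -0.78 to 0.65 in HCT116. Within these lines 1.85% and 1.89% of genes differed by 2-fold. At 8-fold, 136 genes were higher in LS174T-siVec and 191 in HCT116-Vec. A level of at least 8 on one array with a level under 6 on the other was read for 56 genes in favour of LS174T-siVec (0.329%) and for 111 in favour of HCT116-Vec (0.651%). Among genes at the edge of the 2-fold rule, SMIM19 lay just inside at 1.0001 and TLN1 just outside at 0.9993, while DSTYK was inside at -1.0016 and PTK2 outside at -0.9988. Spike-in control probe sets, 30 in all, differed by -0.36 to 0.51, and for GAPDH the 3' minus the 5' probe set gave -0.07 on both baseline arrays. For ACTB it gave -0.18 in LS174T-siVec and 0.02 in HCT116-Vec.

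**Figure D1:**
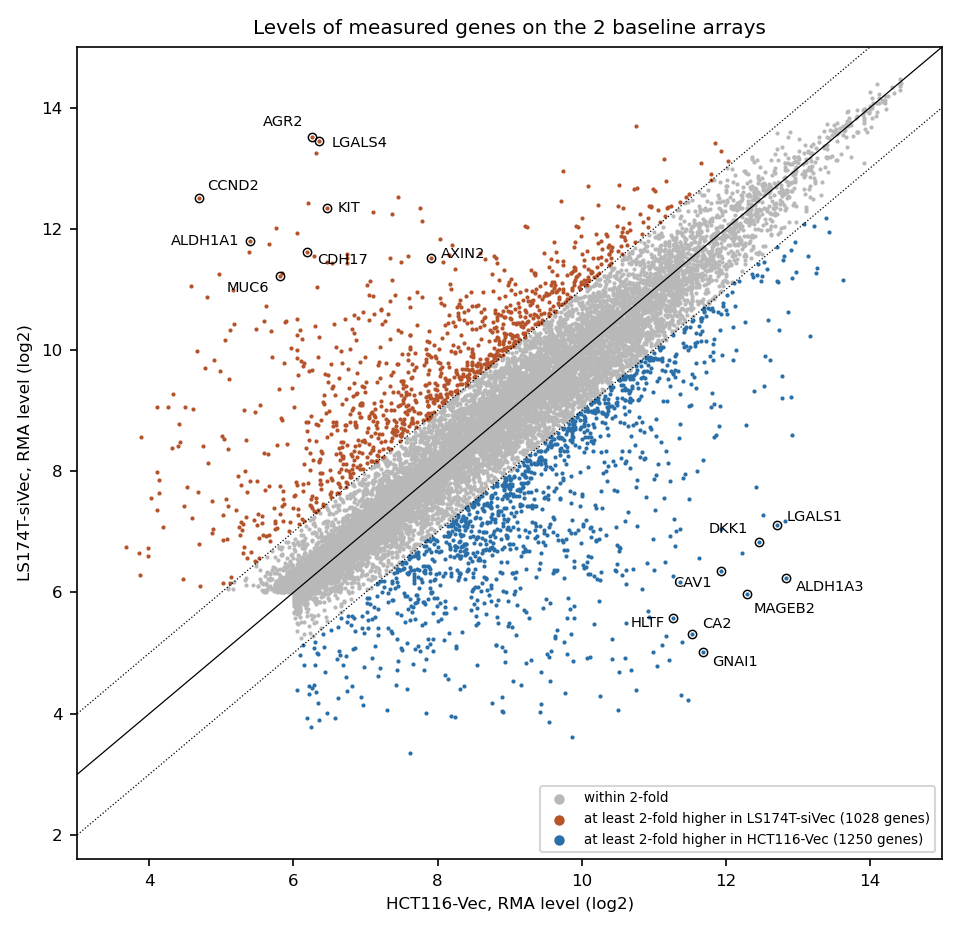
Level of each measured gene (log2 RMA value) in HCT116-Vec on the horizontal axis and in LS174T-siVec on the vertical axis, 1 array each, with equality as a solid line and 2-fold as dotted lines. AGR2, LGALS4, KIT and CCND2 stand at the upper left above 12 in LS174T-siVec, and ALDH1A3, MAGEB2, LGALS1 and CA2 at the lower right above 11 in HCT116-Vec.

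The widest differences on the LS174T side were those of AGR2 and LGALS4, ranked with levels under 6 set to 6. AGR2, a disulfide isomerase of the endoplasmic reticulum that mucin folding needs, stood at 13.52 in LS174T-siVec and 13.34 in LS174T-siCDX1, against 6.25 in HCT116-Vec and 6.69 in HCT116-CDX1. LGALS4, a galectin of the gut lining, read 13.45 and 11.81 in LS174T and 6.36 and 6.89 in HCT116. Both were near the level of absent genes in HCT116 and above 11 on each LS174T array, with baseline folds of 154 and 136. The 2 arrays of a line did not overlap with those of the other line for either gene. Such separation held for 32.5% of all measured genes with LS174T higher and for 30.4% with HCT116 higher. Separations given below are to be read beside these shares, since many of the genes were picked for a wide baseline difference. The second AGR2 probe set differed by 2.48.

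Other genes far higher in LS174T-siVec came from several roles. KIT, the receptor of stem cell factor, was at 12.35 against 6.47, but at 9.88 in LS174T-siCDX1 and 6.54 in HCT116-CDX1. CCND2, a G1 cyclin, was at 12.51 and 12.28 in LS174T and at 4.69 in HCT116-Vec, a difference of at least 91.0-fold, and at 8.74 in HCT116-CDX1. TSPAN8, a tetraspanin of gut epithelium, was at 11.93 and 11.58 in LS174T, 6.05 in HCT116-Vec and 8.27 in HCT116-CDX1. For these 3 genes the lines stayed apart, and the gap between the nearest arrays was narrower than the baseline difference, at 3.33 for KIT, 3.54 for CCND2 and 3.31 for TSPAN8. ALDH1A1, a retinaldehyde dehydrogenase, was at 11.79 and 12.95 in LS174T and at 5.39 and 4.74 in HCT116. LYZ, the antibacterial enzyme lysozyme, was at 11.25 and 11.74 against 4.97 and 5.21. Both read under 6 on each HCT116 array, and the baseline folds were at least 55.5 and at least 38.1. NRN1, a neurite growth factor, had at least 64.6-fold more signal in LS174T-siVec, ROBO1, a receptor for Slit guidance proteins, at least 31.9-fold, PPP1R1B, a phosphatase inhibitor, 36.1-fold, and the calcium-binding gene S100P 33.8-fold. TMEM132D-AS1, an antisense RNA gene, was at 13.25 against 6.31, and its second probe set differed by 5.82.

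On the HCT116 side the widest difference by the same ranking was that of ALDH1A3. This gene, for another retinaldehyde dehydrogenase, stood at 12.83 in HCT116-Vec and 12.54 in HCT116-CDX1, against 6.23 and 6.29 in LS174T-siVec and LS174T-siCDX1. GNAI1, an inhibitory G protein subunit, read 11.69 and 11.18 in HCT116 and 5.02 and 5.03 in LS174T. ALDH1A3 and ALDH1A1 thus lay in opposite directions between the lines, each with no overlap, and the baseline fold of ALDH1A3 was 97.3 while that of GNAI1 was at least 51.6. DKK1, a secreted Wnt antagonist, was at 12.45 and 13.29 in HCT116 and at 6.84 and 8.21 in LS174T. MARCKS, a membrane-bound substrate of protein kinase C, was at 11.47 and 11.49 against 4.22 and 6.16. Both varied within LS174T by more than 1 on the log2 scale, and the lines still did not overlap. With HCT116 higher, 30.4% of all measured genes were likewise separated. AKAP12, a scaffold for protein kinase A, differed by -5.64, and PDE4B, a cyclic AMP phosphodiesterase, was at least 42.1-fold higher in HCT116-Vec. The tubulin genes TUBB6 and TUBA1A were 47.4-fold and at least 34.6-fold higher, with the reserve that tubulin genes are close in sequence. HLTF, a chromatin remodelling helicase, was at 11.27 and 11.79 in HCT116 and at 5.57 and 5.60 in LS174T.

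Of the 20 widest separations in each direction, ranked with levels under 6 set to 6, all 20 on the LS174T side and 19 on the HCT116 side were also at least 2-fold between LS174T-siCDX1 and HCT116-CDX1. The exception was ECI2, an enzyme of fatty acid oxidation, at 11.36 in HCT116-Vec and 6.17 in LS174T-siVec but at 10.29 and 10.20 on the other arrays. The dimmer level was under 6 for 10 of the LS174T and 11 of the HCT116 genes. Not every probe set of these genes showed the difference. For LRATD1 the 7 probe sets differed by 0.18 to 6.23, for PHLDB2 another measured probe set differed by -0.48, for GAL by -0.40, for CAV2 by -0.34 and for CCND2 by 0.64.

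**Figure D2:**
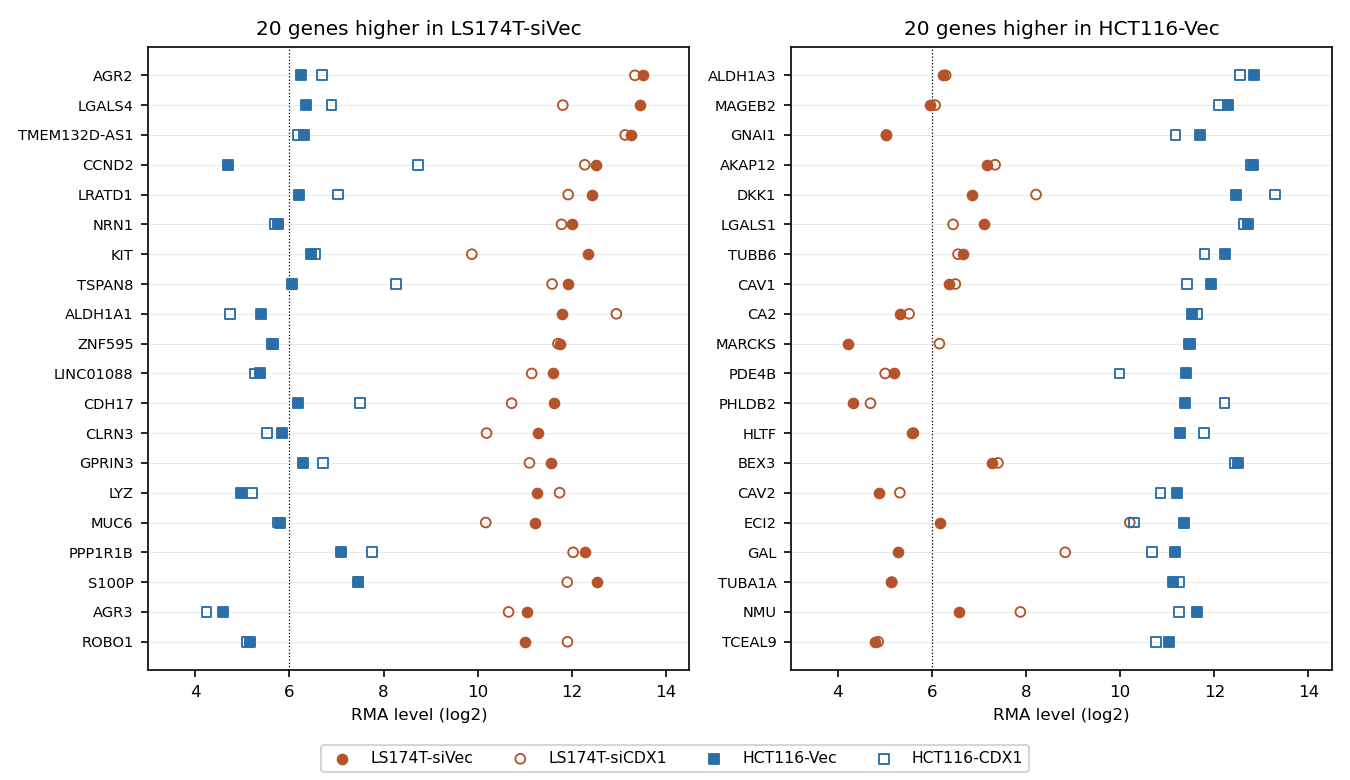
Levels (log2 RMA value) of the 20 genes with the widest baseline difference in each direction on all 4 arrays, LS174T as circles and HCT116 as squares. Symbols are filled for the controls and open for the arrays labelled for changed CDX1, and the dotted line marks 6. The lines stay apart for each gene shown; ECI2 is the narrowest, with its open symbols at 10.20 and 10.29.

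Promoter sequences were read from RefSeq (GRCh38.p14) as the 250 bases before the start of transcription, for 13420 of the measured genes. They are shown for AGR2, TSPAN8 and CLRN3, which were on the LS174T side and hold the letters TTTATG or the reverse complement CATAAA, a core bound by CDX factors, here in capitals. AGR2 lies at chr7:16805000-16805249, TSPAN8 at chr12:71158000-71158249 and CLRN3 at chr10:127892942-127893191, each on the minus strand.
AGR2: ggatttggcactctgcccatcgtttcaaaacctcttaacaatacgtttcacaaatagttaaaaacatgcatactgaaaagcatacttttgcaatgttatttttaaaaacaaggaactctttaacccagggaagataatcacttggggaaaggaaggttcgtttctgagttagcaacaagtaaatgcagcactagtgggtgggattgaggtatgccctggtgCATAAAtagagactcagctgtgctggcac
TSPAN8: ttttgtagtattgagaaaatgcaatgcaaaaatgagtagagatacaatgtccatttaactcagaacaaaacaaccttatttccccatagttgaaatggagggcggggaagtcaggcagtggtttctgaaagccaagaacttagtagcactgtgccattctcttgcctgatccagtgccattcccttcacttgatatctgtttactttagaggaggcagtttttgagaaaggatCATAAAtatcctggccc
CLRN3: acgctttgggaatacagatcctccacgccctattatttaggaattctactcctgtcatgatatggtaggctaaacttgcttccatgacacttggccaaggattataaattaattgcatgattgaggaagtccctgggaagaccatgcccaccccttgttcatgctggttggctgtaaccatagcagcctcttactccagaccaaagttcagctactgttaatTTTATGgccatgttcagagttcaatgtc
The match began 29, 17 and 28 bases before the start. AGR3, the neighbour and relative of AGR2, held a match 216 bases before its start. For the HCT116 side ALDH1A3 at chr15:100879581-100879830 and CAV1 at chr7:116524759-116525008, both on the plus strand, and HLTF at chr3:149086534-149086783 on the minus strand are shown, with each CpG in capitals, because their promoters hold many of these.
ALDH1A3: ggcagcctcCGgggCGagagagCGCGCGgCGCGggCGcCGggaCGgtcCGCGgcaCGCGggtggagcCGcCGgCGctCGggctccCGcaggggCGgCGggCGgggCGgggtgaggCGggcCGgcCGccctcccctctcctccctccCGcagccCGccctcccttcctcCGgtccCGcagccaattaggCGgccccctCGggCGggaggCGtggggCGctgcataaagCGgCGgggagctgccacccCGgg
CAV1: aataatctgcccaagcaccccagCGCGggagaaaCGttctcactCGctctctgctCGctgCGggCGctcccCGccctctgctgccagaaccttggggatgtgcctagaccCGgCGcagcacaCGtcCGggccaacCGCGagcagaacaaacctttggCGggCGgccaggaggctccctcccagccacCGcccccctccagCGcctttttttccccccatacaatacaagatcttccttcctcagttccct
HLTF: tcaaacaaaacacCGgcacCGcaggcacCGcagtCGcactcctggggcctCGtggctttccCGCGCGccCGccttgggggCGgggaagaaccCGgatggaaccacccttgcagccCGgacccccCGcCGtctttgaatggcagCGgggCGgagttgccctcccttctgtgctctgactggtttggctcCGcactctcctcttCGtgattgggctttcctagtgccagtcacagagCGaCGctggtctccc
These 3 windows held 38, 18 and 20 CpG dinucleotides, against 3, 1 and 2 in AGR2, TSPAN8 and CLRN3. The promoters shown were picked for these features, so the contrast is no result. Among the 20 widest differences per direction, 13 LS174T and 17 HCT116 genes had a promoter listed. The CDX letters were in 4 and 1 of these. A ratio of observed to expected CpG under 0.6 was found in 8 and 6. ALDH1A3 also held the CDX letters, 30 bases before its start, so the match was not particular to genes of one side.

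Promoter base composition is given for all called genes and for those at least 8-fold apart. The ratio of observed to expected CpG had a median of 0.77 over the 13420 promoters. It was 0.74 for the genes at least 2-fold higher in LS174T-siVec and 0.79 for those higher in HCT116-Vec, with median GC contents of 64.4% and 66.4%. The 2 sides were thus close to each other and to all promoters at the 2-fold threshold. It was 0.56 for the 105 genes at least 8-fold higher in LS174T-siVec with a promoter listed, and 0.73 for the 154 at least 8-fold higher in HCT116-Vec. GC content had medians of 63.6% over all promoters and of 56.8% and 65.6% in these 8-fold groups. The letters TTTATG on either strand were in 6.34% of all promoters, in 15.2% of the LS174T group (16 of 105) and in 7.79% of the HCT116 group (12 of 154). At 2-fold the shares were 8.80% and 5.95%. CpG-poor promoters, with a ratio under 0.6, hold them more often in any group. Among those the shares were 12.5% of all, 21.4% of the LS174T group (12 of 56) and 18.0% of the HCT116 group (9 of 50). The TATA box letters TATAAA on either strand, which share letters with the CDX core, were in 7.25%, 12.4% and 7.14% of the 3 groups. These shares describe letters in a window and were not tested.

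**Figure D3:**
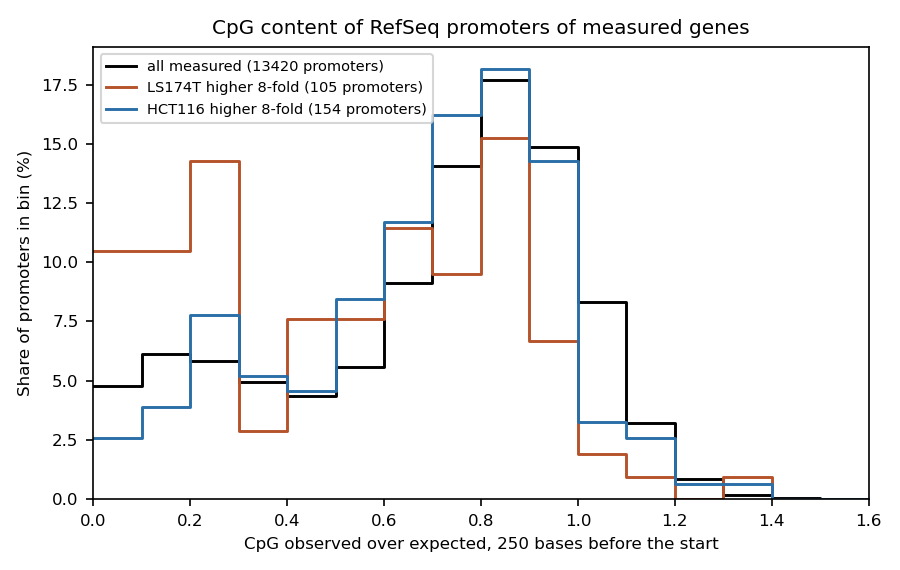
Share of promoters (percent, vertical axis) by the ratio of observed to expected CpG in the 250 bases before the start (horizontal axis, bins of 0.1), for all measured genes and for those at least 8-fold higher in either control. The LS174T group, with a median of 0.56, has more promoters at low ratios than the HCT116 group, with a median of 0.73.

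Transcription factors of the intestinal epithelium were more often higher in LS174T-siVec than in HCT116-Vec. Of 25 measured members 11 were higher there and 1, TCF7L2, in HCT116-Vec, with a list median of 0.82. CDX1 read 10.46 in LS174T-siVec, 9.06 in LS174T-siCDX1, 8.21 in HCT116-Vec and 8.24 on the array labelled HCT116-CDX1. CDX2, its close relative, read 9.49 and 9.14 in LS174T and 7.52 and 7.62 in HCT116. LS174T-siVec was the highest array for both genes, and the baseline folds were 4.73 for CDX1 and 3.91 for CDX2. The CDX1 probe set did not set the array labelled HCT116-CDX1 apart from HCT116-Vec, so it does not bear out that label. MYB, a factor of progenitor cells, was 7.53-fold higher in LS174T-siVec, and GATA6, a zinc finger factor of endoderm, differed by 2.26. The pioneer factor genes FOXA1 and FOXA2 differed by 2.22 and 1.54, the nuclear receptor gene HNF4G by 2.03, and VDR, the vitamin D receptor, by 1.66. KLF5, a factor of crypt cells, differed by 1.13 at baseline and by -0.78 in the second pair. TCF7L2, the nuclear partner of beta-catenin, was at 11.14 in LS174T-siVec and 12.72 in HCT116-Vec, and each of its 7 probe sets was lower in LS174T-siVec, with differences of -0.27 to -1.72. SOX9, KLF4 and ELF3 differed by less than 2-fold.

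Secretory products of goblet cells were more often higher in LS174T-siVec. Among 22 measured goblet products 10 were higher in LS174T-siVec and 1 in HCT116-Vec, with a median of 0.40. AGR3 stood at 11.06 and 10.66 in LS174T and at 4.58 and 4.24 in HCT116, at least 33.3-fold apart at baseline. ST6GALNAC1, which caps mucin glycans with sialic acid, was at 10.35 and 9.75 against 5.48 and 4.78. REG4, a secreted lectin, was at 9.13 and 8.70 against 6.94 and 7.10. The lines did not overlap for any of the 3, and 32.5% of all measured genes were likewise separated with LS174T higher. The trefoil peptide genes TFF1, TFF2 and TFF3, whose products protect the mucosa, differed by 1.82, 1.02 and 1.67. In LS174T-siCDX1 TFF1 was at 7.51, close to the 7.11 and 7.12 of HCT116, while TFF3 was at 9.31. GALNT12, which starts mucin glycosylation, was the member higher in HCT116-Vec, at 9.80 against 5.90.

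Among 11 measured mucins, 3 were higher in LS174T-siVec, 0 in HCT116-Vec and 8 within 2-fold, with a median of 0.37. MUC6, a gel-forming mucin best known from the stomach, was at 11.22 and 10.17 in LS174T and at 5.81 and 5.74 in HCT116. MUC13, a membrane mucin of the gut, read 10.48 and 9.45 against 7.28 and 7.96. MUC2, the gel-forming mucin of goblet cells, was at 9.09 in LS174T-siVec, 7.73 in LS174T-siCDX1, 7.58 in HCT116-Vec and 7.51 in HCT116-CDX1. LS174T-siVec was thus the single high array for MUC2, whereas both LS174T arrays were high for MUC6. MUC5AC, another gel-forming mucin, differed by less than 2-fold at 8.88 against 8.03. The second MUC6 probe set differed by 1.83. The counts rest on the probe set read for each gene. MUC4 differed by 0.22 through that probe set, but by -2.08 through another measured one, at 5.80 against 7.88. For MUC5AC another measured probe set differed by 1.04.

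Of 21 measured regulators of the secretory lineage and of Notch signalling, 5 were higher in LS174T-siVec and 2 in HCT116-Vec, with a median of -0.06. ATOH1 and SPDEF, the factors that drive secretory and goblet fate, were at 6.93 and 9.13 in LS174T-siVec and at 6.99 and 9.24 in HCT116-Vec. The Notch targets HES1, HES5 and NRARP differed by 1.57, 1.51 and 1.41, the ligand gene DLL1 by 1.32 and the receptor gene NOTCH1 by 1.11. One of the 3 HES1 probe sets differed by 0.20 and the second DLL1 probe set by 0.35. NOTCH3, another receptor, differed by -1.49 through one probe set and by 0.12 through the other, and PAX6, a homeobox factor of endocrine cells, by -1.06.

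Some genes of absorptive cells were far higher in LS174T-siVec, while most differed by less than 2-fold. Of 32 measured members 9 were higher in LS174T-siVec and 1 in HCT116-Vec, and the median was 0.10. CDH17, the liver-intestine cadherin, read 11.62 and 10.72 in LS174T and 6.19 and 7.49 in HCT116. FABP1, which carries fatty acids, read 10.25 and 10.03 against 6.05 and 5.91, but 0.49 was its difference on the second probe set. VIL1, the microvillus protein villin, was at 10.91 and 9.94 against 7.04 and 7.26, and its 4 probe sets differed by 0.39 to 4.59. MTTP, needed to load lipoproteins, was at 8.14 in LS174T-siVec and at 4.96, 4.81 and 4.81 on the other arrays. EPS8L3, of the EPS8 family, was at 10.30 and 8.64 in LS174T and at 7.5 and 9.01 in HCT116, so that the lines overlapped. CA2, the cytosolic carbonic anhydrase of colon epithelium, ran the other way at 11.53 and 11.63 in HCT116 against 5.31 and 5.51 in LS174T, at least 46.2-fold at baseline. The disaccharidase gene SI, at 4.09 and 3.93, and the anion exchanger gene SLC26A3, at 4.53 and 4.84, were under 6 on both baseline arrays.

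KRT20, the keratin of differentiated gut epithelium, was at 8.15 in LS174T-siVec, 5.45 in LS174T-siCDX1, 6.36 in HCT116-Vec and 9.38 on the array labelled HCT116-CDX1. The baseline difference was 1.79, 3.46-fold, and the second pair gave -3.94, so the order of the lines depended on the pair of arrays. Of 11 measured keratins 3 were higher in LS174T-siVec, KRT20 with KRT80 at 1.32 and KRT13 at 1.28, and 1 in HCT116-Vec, KRT15 at -1.52. The list median was 0.13. KRT7, KRT8, KRT18 and KRT19 differed by less than 2-fold.

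Junction genes went both ways. Of 30 measured members 6 were higher in LS174T-siVec and 3 in HCT116-Vec, with a median of 0.13. The tight junction genes CLDN2, CLDN3, CLDN1 and CLDN4 differed by 3.28, 2.84, 2.27 and 1.05. CLDN3 was at 11.50 and 10.79 in LS174T against 8.66 and 7.91 in HCT116, whereas CLDN2 was at 10.59 in LS174T-siVec and only 7.70 in LS174T-siCDX1. CDH1, E-cadherin, was at 8.80 and 8.76 in LS174T and at 10.59 and 11.41 in HCT116, and the P-cadherin gene CDH3 at 9.08 and 7.53 against 11.48 and 11.79. Both classical cadherins were thus lower in LS174T on each array, and CDH17 higher. DSC3, a desmosomal cadherin, was at least 3.83-fold higher in HCT116-Vec. Among CEACAM, galectin and S100 genes 5 of 21 were higher in LS174T-siVec and 4 in HCT116-Vec, with a median of 0.08. CEACAM6, a surface glycoprotein of colon cancers, read 10.82 in LS174T-siVec and 7.52, 7.35 and 7.51 on the other arrays. LGALS1, a galectin of mesenchymal cells, read 12.70 and 12.63 in HCT116 and 7.11 and 6.45 in LS174T, the reverse of LGALS4, and the S100A2, S100A4 and S100A13 genes differed by -1.56, -1.39 and -1.44.

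Most mesenchymal and caveolar genes were higher in HCT116-Vec. Of 28 measured members 16 were higher there and 2 in LS174T-siVec, and the list median was -1.76, the lowest of the 42 lists. CAV1 and CAV2, which form caveolae, were at 11.93 and 11.22 in HCT116-Vec, 11.42 and 10.85 in HCT116-CDX1, 6.36 and 4.88 in LS174T-siVec and 6.5 and 5.32 in LS174T-siCDX1. The genes of the caveolar coat CAVIN1 and CAVIN3 differed by -2.34 and -1.96. All 4 were lower on both LS174T arrays than on either HCT116 array, as were 30.4% of all measured genes. EMP3, a tetraspan membrane protein, differed by -3.71, MSN, the membrane-cytoskeleton linker moesin, by -3.16, and the matricellular gene CCN1 by -2.90. Contractile genes MYL9, TPM2 and CALD1 differed by -2.06, -1.92 and -1.63, and the fibronectin gene FN1 by -1.56. The factor genes SNAI2 and TWIST1 were at 6.22 and 6.31 in HCT116-Vec, which is within the range of absent genes, and at 4.32 and 4.36 in LS174T-siVec. VIM, ZEB1, CDH2 and SPARC, much used marks of mesenchymal cells, differed by less than 2-fold or were under 6, with VIM at 7.32 and 8.06. TGFBI and CCN2 were the members higher in LS174T-siVec, at 1.65 and 1.06. Of 13 measured fibroblast, muscle and endothelial markers 0 were called in either direction. The summed level of all 16 markers read, measured or not, was 112.4 in LS174T-siVec and 112.8 in HCT116-Vec.

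Matrix, integrin and protease genes leaned to HCT116-Vec, with 10 of 36 measured members higher there, 4 higher in LS174T-siVec and a median of -0.17. COL4A5, a basement membrane collagen, was at 9.04 and 10.04 in HCT116 and at 4.54 and 4.75 in LS174T. COL12A1, a fibril-associated collagen, was at 9.84 in HCT116-Vec, 7.97 in HCT116-CDX1 and 5.73 and 5.96 in LS174T. TIMP2, an inhibitor of metalloproteinases, differed by -2.75, the urokinase gene PLAU by -1.57 and its receptor gene PLAUR by -2.33. Integrin subunits divided: ITGA3, ITGA5 and ITGB4 differed by -1.68, -1.63 and -1.56, while ITGA6 and ITGB8 differed by 2.17 and 2.51. ITGA6 was at 12.40 and 12.67 in LS174T and at 10.23 and 9.82 in HCT116.

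**Figure D4:**
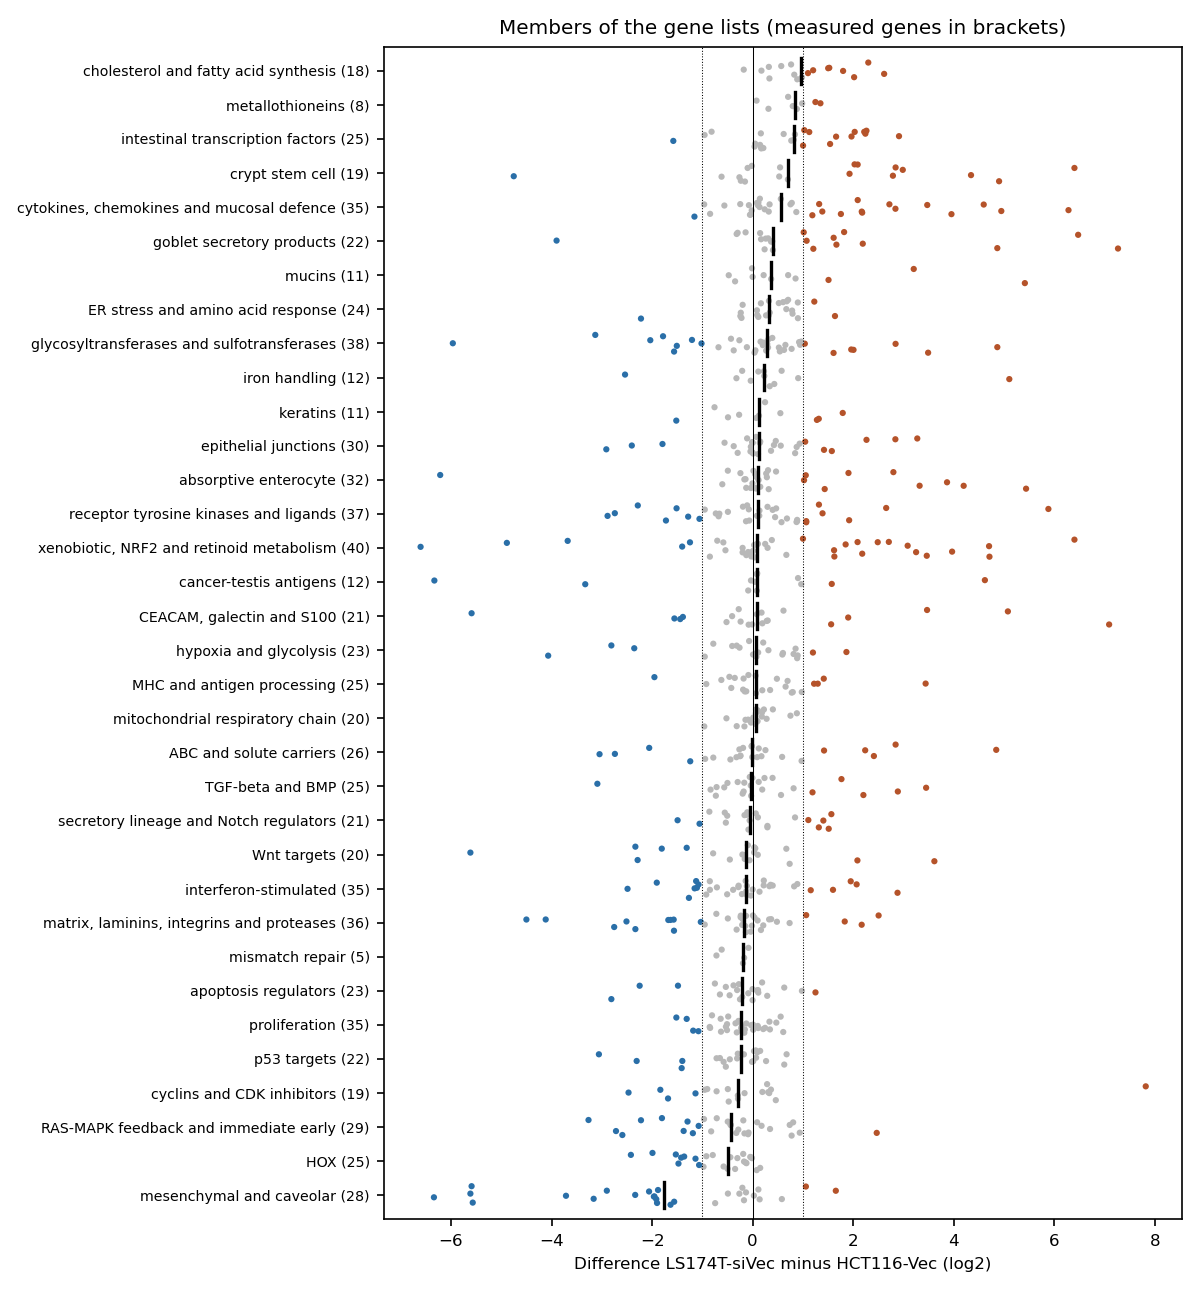
Difference LS174T-siVec minus HCT116-Vec (log2, horizontal axis) of each measured member of 34 pathway lists, with the list median as a black bar and 2-fold as dotted lines; the number measured stands in brackets. The median runs from -1.76 for mesenchymal and caveolar genes to 0.97 for cholesterol and fatty acid synthesis, beside 0.01 over all genes.

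Genes of crypt stem cells were more often higher in LS174T-siVec than in HCT116-Vec. Of 19 measured members 9 were higher there and 1 in HCT116-Vec, with a median of 0.70. ASCL2, the transcription factor of the crypt base, read 11.43 and 11.23 in LS174T and 6.53 and 6.61 in HCT116. EPHB3, a receptor that places cells along the crypt, read 12.12 and 11.58 against 7.78 and 8.09. LGR5, the R-spondin receptor that marks stem cells, read 8.69 and 8.94 against 6.60 and 6.70. The 3 genes were higher on both LS174T arrays, 29.9-fold, 20.3-fold and 4.26-fold at baseline. OLFM4, a secreted mark of crypt base cells, was at 6.65 in LS174T-siVec, 11.65 in LS174T-siCDX1 and 3.86 and 4.26 in HCT116. ZNRF3, which removes Wnt receptors, differed by 2.03, and LRIG1, a brake on growth factor receptors, by 2.99 through one of 4 probe sets and by 1.33 through another. PROM1, the surface protein CD133, was the member higher in HCT116-Vec, at 9.43 and 9.71 against 4.68 and 4.75.

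Wnt targets were called in both directions. Of 20 measured members 2 were higher in LS174T-siVec and 5 in HCT116-Vec, with a median of -0.13. AXIN2, a feedback inhibitor and widely used readout of the pathway, was at 11.52 and 11.37 in LS174T and at 7.90 and 8.0 in HCT116, and its 4 probe sets differed by 2.81 to 3.66. LRP4, of the lipoprotein receptor family, differed by 2.08. The inhibitors DKK1, KREMEN1 and NKD2 differed by -5.61, -1.81 and -1.31. MYC and CCND1, targets in many tissues, were at 12.49 and 11.13 in LS174T-siVec and at 12.45 and 11.29 in HCT116-Vec. In the TGF-beta and BMP list 5 of 25 genes were higher in LS174T-siVec and 1 in HCT116-Vec, with a median of -0.03. The ligand gene BMP7 differed by 3.45, the inhibitory genes SMAD7 and SMAD6 by 2.89 and 1.77, and the BMP target ID3 by 2.20. One of the 4 SMAD6 probe sets differed by -0.32. TGFB1, the ligand, differed by -3.09 through one probe set and by -0.14 through the other.

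RAS-MAPK output genes were more often higher in HCT116-Vec than in LS174T-siVec, and most differed by less than 2-fold. Of 29 measured members 9 were higher there and 1, SPRY2, in LS174T-siVec, with a median of -0.44. DUSP5, a phosphatase that acts on ERK, read 11.86 and 12.12 in HCT116 and 8.6 and 7.39 in LS174T. DUSP4, a related phosphatase, read 11.83 and 11.85 against 9.12 and 8.69. FOSL1, an AP-1 subunit, read 11.36 and 11.18 against 8.77 and 8.28. The lines were separated at all 3, as they were for 30.4% of all measured genes with HCT116 higher. Between the nearest arrays of the lines lay -3.26, -2.72 and -2.41 for DUSP5, DUSP4 and FOSL1. The early response genes ATF3, IER3 and EGR1 differed by -2.22, -1.80 and -1.29, and DUSP6 by less than 2-fold. SPRY2, an inhibitor of receptor signalling, was at 10.76 and 10.77 in LS174T and at 8.29 and 8.55 in HCT116, whereas SPRY4 ran the other way at -1.19.

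Of 37 measured receptor tyrosine kinases and ligands 7 were higher in each line, with a median of 0.10. Beside KIT, the neuregulin receptor genes ERBB3 and ERBB2 differed by 1.92 and 1.39 and the ephrin receptor genes EPHB4 and EPHA1 by 1.07 and 1.07. FGFR1, a fibroblast growth factor receptor, differed by -2.89, with its 7 probe sets at -0.12 to -2.89, FGFR4 by -1.51 and the ligand gene FGF19 by -2.74. TGFA, a ligand of the EGF receptor, differed by -1.28, and EGFR and MET by less than 2-fold.

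HOX genes, which set position along the body axis, were higher in HCT116-Vec in 8 of 25 measured cases and in LS174T-siVec in 0, with a median of -0.50. HOXC6 was at 9.19 and 9.06 in HCT116 and at 6.76 and 6.93 in LS174T, HOXB6 at 8.32 and 9.70 against 6.33 and 7.17. The second HOXB6 probe set differed by -0.36.

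Cell cycle and survival genes differed at single members. CCND2 was the member of 19 cyclins and CDK inhibitors that was higher in LS174T-siVec, and 4 were higher in HCT116-Vec, with a median of -0.29. Those were the CDK inhibitor genes CDKN2A at -2.47 and CDKN1C at -1.84, CCNE2, an S phase cyclin, at -1.68, and E2F3 at -1.14. One of the 3 CDKN2A probe sets differed by -0.19. Of 35 proliferation genes 4 were higher in HCT116-Vec, TTK at -1.52, MKI67 at -1.31, CDC20 at -1.18 and BUB1 at -1.08, and 0 in LS174T-siVec. This is 11.4% of the list called, beside 13.4% of all measured genes. The proliferation median was -0.23 at baseline and 0.43 in the second pair, so its sign depended on the arrays. Among 22 p53 targets 4 were higher in HCT116-Vec, PLK2 at -3.06, RRM2B at -2.31, TP53INP1 at -1.41 and TP53I3 at -1.40. CDKN1A and MDM2 stayed within 2-fold, and the list median was -0.23. The share called was 18.2%, near the 13.4% of all measured genes. Among 23 apoptosis genes 1 was higher in LS174T-siVec, CASP1 at 1.25, and 3 in HCT116-Vec. DAPK1, a death-associated kinase, was at -2.25 and BID at -1.48, and the list median was -0.21. The share called was 17.4%, also near that of all genes. In the mismatch repair list 0 of 5 measured genes differed by 2-fold, with a median of -0.19, and in the respiratory chain list 0 of 20, with a median of 0.07.

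Cytokine and mucosal defence genes were more often higher in LS174T-siVec, in 14 of 35 measured cases against 1 for HCT116-Vec, with a median of 0.56. IL15, a cytokine for natural killer cells, differed by 3.96 and was at 8.49 in LS174T-siCDX1 against 6.06 in HCT116-CDX1. IL32 read 10.68 and 8.64 against 7.21 and 7.13. PIGR, which carries IgA across the epithelium, was at 12.35 in LS174T-siVec and at 7.66, 7.75 and 7.95 on the other arrays, and the alarmin gene IL33 at 9.05 against 4.17, 4.11 and 4.67. The 2 arrays of LS174T were alike in being high for IL15 and IL32, but LS174T-siVec alone was high for PIGR and IL33. The neutrophil chemokine genes CXCL1, CXCL2 and CXCL3 differed by 2.18, 2.84 and 2.72, and CXCL2 and CXCL3 can share probes as close relatives. NOD2, a sensor of bacterial wall fragments, was the member higher in HCT116-Vec, at -1.16. The list median was 0.11 in the second pair.

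Interferon-stimulated genes divided, with 5 of 35 measured members higher in LS174T-siVec, 7 in HCT116-Vec and a median of -0.13. IFITM1, a membrane restriction factor, was at 10.34 and 9.20 in LS174T and at 7.45 and 8.19 in HCT116, and OAS1, an antiviral RNA sensor, differed by 1.95. IFI6, IFIT1 and ISG15 differed by -2.49, -1.91 and -1.11. In the antigen processing list 4 of 25 measured genes were higher in LS174T-siVec and 1 in HCT116-Vec, with a median of 0.07. This is 20.0% of the list called, beside 13.4% of all measured genes. PSMB8, a subunit of the immunoproteasome, was at 9.66 and 9.35 in LS174T and at 6.22 and 5.79 in HCT116. PSMB9, its partner, differed by 1.30 and TAP2, a peptide transporter subunit, by -1.95. B2M was at 13.51 and 12.86 on the baseline arrays.

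Detoxification and retinoid genes held some of the widest differences. Of 40 measured members 15 were higher in LS174T-siVec and 5 in HCT116-Vec, with a median of 0.09. UGT1A6, which glucuronidates phenols, was at 11.04 and 11.59 in LS174T and at 6.33 and 6.11 in HCT116. AKR1C3, AKR1C2 and AKR1C1, aldo-keto reductases of steroids, differed by 3.97, 3.08 and 2.71, and AKR1B10 by 3.46. The AKR1C genes are near-identical, and their values may not be independent. AHR, the aryl hydrocarbon receptor, differed by 1.85, its target CYP1B1 by 2.09 and its repressor AHRR by -1.40. GSTM3, a glutathione transferase, differed by 4.70 through one probe set and by 0.35 through the other. CYP24A1, which degrades vitamin D, was at 8.91 in HCT116-Vec and at 4.59, 4.02 and 4.06 on the others, and CYP26B1, which degrades retinoic acid, at 8.81 and 8.82 in HCT116 and 5.13 and 6.07 in LS174T. Another CYP26B1 probe set differed by 0.16.

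Transporters showed 5 of 26 measured genes higher in LS174T-siVec and 4 in HCT116-Vec, with a median of -0.02. ABCB1, the drug efflux pump P-glycoprotein, was at 11.59 and 9.67 in LS174T and at 6.75 and 6.93 in HCT116, 28.8-fold at baseline. ABCC2 and ABCG2, other efflux pumps, differed by -3.04 and -2.74. The chloride cotransporter gene SLC12A2 differed by 2.84. Of 12 iron handling genes HEPH, an intestinal ferroxidase, was higher in LS174T-siVec and CYBRD1, a duodenal ferric reductase, in HCT116-Vec, and the median was 0.23. This is 16.7% of the list called, beside 13.4% of all measured genes. HEPH was at 10.72, 10.03 and 10.22 in LS174T-siVec, LS174T-siCDX1 and HCT116-CDX1 and at 5.61 in HCT116-Vec, so that HCT116-Vec was the single low array.

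Sterol and fatty acid synthesis had the highest list median, 0.97, with 8 of 18 measured genes higher in LS174T-siVec, 0 in HCT116-Vec and 17 above 0. INSIG1, a sterol sensor, read 12.71 and 12.43 in LS174T and 10.09 and 11.26 in HCT116. FDPS, of the mevalonate pathway, read 13.16 and 12.81 against 11.14 and 11.28. FADS2, a fatty acid desaturase, read 10.41 and 10.61 against 8.11 and 8.21, and its second probe set differed by 0.49. HMGCS1 was at 11.12 and 10.30 in LS174T and at 9.62 and 10.30 in HCT116, and MSMO1 at 12.02 and 11.50 against 10.92 and 12.06. The lines were apart for the first 3 genes and met or overlapped for HMGCS1 and MSMO1, and the list median was 0.15 in the second pair. Of 8 measured metallothioneins, which bind metals and are close in sequence, 2 were higher in LS174T-siVec, MT1M and MT1G, 0 in HCT116-Vec and all lay above 0, with a median of 0.84. The second MT1G probe set differed by -0.03. Of 24 ER stress and amino acid response genes 2 were higher in LS174T-siVec, CHAC1 and TRIB3, and 1, ATF3, in HCT116-Vec, with a median of 0.33. The 12.5% of the list called was no more than the 13.4% of all measured genes. Of 23 hypoxia and glycolysis genes 2 were higher in LS174T-siVec and 3 in HCT116-Vec, with a median of 0.07. PGM1, which interconverts glucose phosphates, was at 11.28 and 11.23 in HCT116 and at 7.21 and 7.99 in LS174T.

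Genes of glycan assembly were distributed over both lines, with 7 of 38 measured members higher in LS174T-siVec, 8 in HCT116-Vec and a median of 0.28. GCNT3, which branches mucin glycans, differed by 3.49, and the fucosyltransferase genes FUT3, FUT2, FUT4 and FUT6, which make Lewis and H antigens, differed by 2.84, 2.01, 1.96 and 1.61. FUT3 and FUT6 are close in sequence, and the 8 probe sets of FUT6 differed by 0.09 to 3.76. Enzymes that add sulfate to proteoglycans were on the other side: HS6ST2 was at 10.69 and 10.42 in HCT116 and at 4.72 and 4.71 in LS174T, and HS3ST1 and CHST11 differed by -3.13 and -2.04.

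Markers of other cell types and silent germline genes gave a mixed picture. Of 13 measured liver and fetal gut markers, 13 stromal and 2 pancreatic ones, 0 were called, and of 12 blood markers 1 was, LYZ, which is also a mark of Paneth cells, with PTPRC, the defining marker of leukocytes, at 6.51 and 6.62. LYZ was the member of 7 Paneth markers that was called, with DEFA5 and DEFA6 within 2-fold. Of 13 gastric markers 4 were higher in LS174T-siVec, MUC6, CTSE, TFF1 and TFF2, and 1 in HCT116-Vec, ANXA10, at 11.01 and 12.03 in HCT116 against 6.36 and 6.61. Of 16 enteroendocrine and neural markers DDC and ENO2 were higher in LS174T-siVec and GAL, the neuropeptide galanin, in HCT116-Vec. Of 9 squamous markers 1 was higher in HCT116-Vec, CSTA, at least 5.07-fold. The shares called were 8.33% for blood, 14.3% for Paneth, 18.8% for enteroendocrine and neural and 11.1% for squamous markers. Over all measured genes the share was 13.4%. Among 12 measured cancer-testis genes, normally silent outside the germline, MAGEC1 and MAGEA12 were higher in LS174T-siVec and MAGEB2 and PRAME in HCT116-Vec. MAGEB2 was at 12.30 and 12.11 in HCT116 and at 5.97 and 6.07 in LS174T, and MAGEC1 at 10.31 and 10.01 in LS174T and 5.69 and 5.62 in HCT116.

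Neighbouring genes were at times high in the same line. In RefSeq order on GRCh38.p14, 32 runs of at least 3 adjacent measured genes were called in the same direction, 19 for LS174T-siVec and 13 for HCT116-Vec. They held 110 of the 2278 called genes. How many runs the shares of called genes alone would give was not worked out. The runs named here were chosen after their values were seen. TSPAN13, AGR2 and AGR3 on chromosome 7 formed one, with a median difference of 6.48. The trefoil genes TFF3, TFF2 and TFF1 on chromosome 21 and a run from TMEM243 to ABCB1 on chromosome 7, at 1.32 to 4.85, were others. A run of zinc finger and other genes on chromosome 19 that held ZNF91, ZNF675, ZNF681 and ZNF254 was higher in LS174T-siVec by 1.16 to 3.71. On the HCT116 side BEX2, TCEAL9 and BEX3 on chromosome X differed by -4.12 to -6.26. The AKR1C, UGT2B and zinc finger runs hold close relatives whose probes may read each other. By chromosome, the median difference was 0.17 for 7 and 0.18 for 15, and between -0.12 and 0.06 for the other 21 chromosomes with 16982 placed genes in all. Copy number was not measured.

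The second pair of arrays, LS174T-siCDX1 and HCT116-CDX1, shares no array with the baseline pair. It is labelled for a CDX1 change in both lines, so it is not taken as a replicate. The CDX1 probe set does not bear out that label in HCT116. In the second pair 1067 genes (6.22%) were higher in LS174T and 1251 (7.30%) in HCT116. Of the baseline genes, 669 of 1028 (65.1%) and 877 of 1250 (70.2%) were called in the same direction, which is 62.7% and 70.1% of the second lists. Of the genes at least 8-fold apart at baseline, 123 of 136 and 184 of 191 were also 2-fold apart there. Counted over all 4 arrays, both LS174T arrays lay above both HCT116 arrays for 5543 genes (32.5%), and below for 5185 (30.4%); the gap was at least 2-fold for 593 and 805. Genes high in LS174T-siVec at baseline and at least 2-fold higher in HCT116 in the second pair numbered 8: KRT20, CCL20, IFI27, FXYD3, PARM1, ANTXR2, JDP2 and MB21D2, of which the last 5 were named after their values were seen. PARM1 was at 10.66 and 6.52 in LS174T and at 8.80 and 9.91 in HCT116, and FXYD3 at 10.97 and 8.05 against 8.77 and 9.15. In the other direction 0 genes did so.

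**Figure D5:**
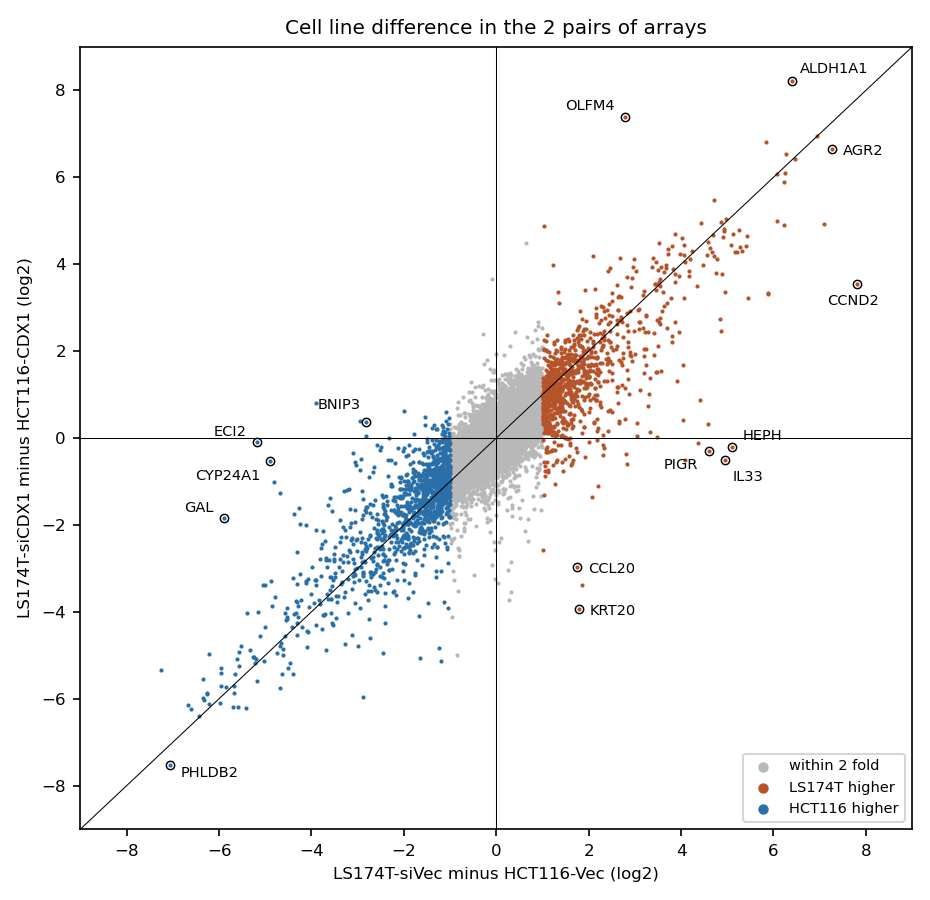
Difference between the lines (log2) in the baseline pair on the horizontal axis and in the pair labelled for changed CDX1 on the vertical axis. Each gene measured at baseline is shown, coloured by the baseline call. ALDH1A1 and AGR2 lie at the upper right and PHLDB2 at the lower left, while KRT20, at 1.79 and -3.94, and CCL20, at 1.76 and -2.97, lie at the lower right.

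A limma fit over the 4 arrays, with the cell line and the CDX1 label as terms and 1 residual degree of freedom, gave the cell line term an adjusted p under 0.05 for 1273 of 17280 genes with LS174T higher (7.37%) and 1509 with HCT116 higher (8.73%). The CDX1 term put LS174T-siVec with the array labelled HCT116-CDX1 and LS174T-siCDX1 with HCT116-Vec, and so rests on a label that the CDX1 probe set does not bear out. With the cell line as the only term the counts were 1517 and 1807. The p-values measure the spread between these arrays only, and an exact permutation test of 2 arrays against 2 cannot go below 0.333. AGR2, ALDH1A3, CAV1, ASCL2 and AXIN2 were named for a wide baseline difference on 2 of these 4 arrays. Their small p-values therefore give no separate support. The 2 arrays per line are 1 control and 1 labelled for changed CDX1, not replicates. The term was 6.96 ± 0.16 (SE, 2 arrays per line) for AGR2 with a limma adjusted p of 0.00095, and -6.43 ± 0.16 for ALDH1A3 with 0.00095. It was -5.25 ± 0.17 for CAV1 (limma adjusted p 0.00095), 4.76 ± 0.15 for ASCL2 (0.00095) and 3.49 ± 0.15 for AXIN2 (0.00111). CDX2 had 1.74 ± 0.16 with a limma adjusted p of 0.0062, while CDX1 had 1.53 ± 0.36 with 0.058 and did not pass. PIGR, IL33 and HEPH, which 1 array set apart and whose lines overlapped, had limma adjusted p of 0.271, 0.242 and 0.168. KRT20 is not read from this fit. Its 2 pairs of arrays were at least 2-fold apart in opposite directions, at 1.79 and -3.94. Of the list members, 16 of 28 mesenchymal and caveolar genes passed with HCT116 higher and 0 with LS174T higher. With LS174T and HCT116 higher, 9 and 2 of 25 intestinal transcription factors passed, and 8 and 1 of 19 crypt stem cell genes. Over all genes fitted the shares were 7.37% with LS174T higher and 8.73% with HCT116 higher. The lists were chosen with earlier results known, so these counts describe the members and are no test of the lists.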

How the data were processed

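RNA of 4 modified cell lines was measured on 1 Affymetrix array each, and groups were taken from the sample titles. Per the labels' protocols, 2 µg of RNeasy total RNA gave biotin-labelled cRNA with an Enzo kit. The deposited values are log2 expression of 54675 probe sets, which the authors made with RMA per the submitters' processing notes; its version and which arrays were normalised together are not given in the sources used here. They lie between 3.2 and 14.6 and were not normalised again. The number of arrays limits the precision.

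The platform annotation named the probe sets (41097 with 1 gene, 1801 with several, 11777 with none), of which 41043 matched RefSeq genes and 0 symbols changed; 10523 genes had several probe sets. The probe sets with no gene, 6684 of them measured, and those with several entered no gene result. XIST and Y-linked genes were not named. The 42 gene lists held 1029 distinct genes, 925 read and 861 measured. The members and lists were chosen with earlier results of these data known, so the lists received no test. Named genes were CDX1, CDX2 and KRT20, the 20 widest differences per direction, up to 6 called members per list and direction, the members of lists of 15 or fewer and paralogs in a list; genes named beyond this, such as list members within 2-fold and the chromosome runs, were picked with values in view.

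The main call was a 2-fold difference between 2 arrays. limma 3.58.1 in R 4.3.3 fitted 17280 genes whose brightest array reached 6, with Benjamini-Hochberg adjusted p-values, and was tested on simulated data. Python 3.11.15 ran the rest with numpy 2.4.6, pandas 2.3.3, statsmodels 0.14.6 and matplotlib 3.10.9. Alternatives were no floor or a floor of 7, quantile normalization, equal medians, a loess (span 0.3), averaging all probe sets per gene, the probe set brightest on the baseline arrays, leaving out names ending in _x_at or _s_at, levels under 6 set to 6, thresholds of 1.5-fold and 4-fold, 4 other limma models and each array left out.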

Additional observations from a re-analysis of the deposited data

Results flagged for a closer look

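For 28 genes the cell line difference had opposite signs in the 2 pairs of arrays. They were counted over the genes of the lists, the widest differences and the genes called in opposite directions. Whether the pairs differ was not tested, since each has 1 array per line. Of these, 26 were higher in LS174T-siVec at baseline and 2 in HCT116-Vec. Over all measured genes the second pair had the opposite sign for 57 of 1028 genes higher in LS174T-siVec. It did so for 27 of 1250 higher in HCT116-Vec. The split of 26 and 2 thus holds for the chosen genes only. The count goes by sign alone. A second-pair value within 0.352 of 0, the spread within a line, is no clear difference in the opposite direction. HMGCS1 at -0.01, CXCL1 at -0.05 and HEPH at -0.20 are examples. HEPH was at 5.11 at baseline and -0.20 in the pair labelled for changed CDX1, IL33 at 4.95 and -0.50, and PIGR at 4.60 and -0.29. The other PIGR probe set gave 6.08 and 0.35, the same sign in both pairs. EPS8L3 was at 2.80 and -0.37, CXCL1 at 2.18 and -0.05, and SLC7A11, a cystine transporter gene, at 1.63 and -0.62. The 8 genes at least 2-fold apart in both pairs were KRT20 at 1.79 and -3.94, PARM1 at 1.86 and -3.39, CCL20 at 1.76 and -2.97, ANTXR2 at 1.02 and -2.57, IFI27 at 2.07 and -1.36, MB21D2 at 1.04 and -1.30, FXYD3 at 2.2 and -1.10, and JDP2 at 1.28 and -1.06. The amino acid response genes CHAC1 and TRIB3 were at 1.64 and 1.23 at baseline and at -0.58 and -0.28 in the other pair. The sterol synthesis genes HMGCS1 and MSMO1 were at 1.5 and 1.1 at baseline and at -0.01 and -0.56 in the other pair. TRIM22 was at 1.6 and -0.15, KRT80 at 1.32 and -0.51, KRT13 at 1.28 and -0.28, and KLK1 at 1.21 and -0.27. IL1RN was at 1.19 and -0.29, KLF5 at 1.13 and -0.78, CCN2 at 1.06 and -0.63, and CYP4F12 at 1.0 and -0.03. On the HCT116 side BUB1 was at -1.08 and 0.39 and BNIP3, a mitophagy receptor gene, at -2.81 and 0.38.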

How the results depend on the processing

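The counts of 1028 and 1250 genes became 2084 and 2433 at a 1.5-fold threshold and 316 and 428 at 4-fold; under the other 9 settings they ran from 816 to 1042 and from 968 to 1264. The scalings moved the median of all genes by -0.0129 to -0.0029, and 0 of the 230 named genes at least 2-fold apart lost the call or changed sign under them. Without probe sets ending in _x_at or _s_at SMAD6 was at -0.32, ERAP1 at -0.09 and MT1G at -0.03, opposite to their main signs; the cause was not tested. Of 178 named genes called and still read there, 16 were no longer 2-fold apart: these 3 with FABP1 at 0.49, GSTM3 at 0.35, TGFB1 at -0.14, HES1 at 0.20, MMP15 at 0.13, COL6A2 at -0.97, HOXB6 at -0.36, CDKN2A at -0.19, FUT6 at 0.28, FADS2 at 0.49, SC5D at 0.84, HMGCS1 at 0.47 and BID at -0.66. With all probe sets of a gene averaged 102 of 288 named genes moved by more than 0.352, the spread within a line, among them LRATD1 to 3.2 and HEPH to 2.5; 24 of 230 were no longer 2-fold apart, among them DLL1 at 0.84, NOTCH3 at -0.69, CLDN4 at 0.55 and E2F3 at -0.68. With levels under 6 set to 6 the call was lost for 5, among them KRT13 at 0.94, OLFM4 at 0.65 and MT1M at 0.65. List medians near 0 changed sign for CEACAM, galectin and S100 genes (-0.01), keratins (-0.10), receptor tyrosine kinases (-0.08) and Notch regulators (0.24) without those probe sets, for antigen processing (-0.02) and TGF-beta (0.01) with the mean of probe sets, for stromal markers (-0.05) after quantile normalization and with a floor of 7, for liver markers (-0.13) with a floor of 7 and for squamous markers (0.04) with no floor. The limma counts of 1273 and 1509 ran from 703 to 1627 and from 920 to 1843 over all settings; leaving out an array gave 703 to 1627 and 920 to 1707. Without LS174T-siVec they were 703 and 920, and without LS174T-siCDX1 880 and 953; with the LS174T arrays kept and HCT116-Vec left out they were 1627 and 1707. No paired analysis was possible because each group had 1 array. With 1 array per name, differences between cultures of a line could not be measured.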

Other observations

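Probe sets with no named gene also separated the lines. Of 6684 measured, 212 were at least 2-fold higher in LS174T-siVec and 153 in HCT116-Vec, together 5.46%. Of the 32891 measured probe sets named for 1 gene, 2115 and 2211 were. Among 1407 called genes read by more than 1 probe set, all of them shared a sign for 1077, 766 had another probe set that passed 2-fold in the same direction and 6 had one that passed it in the opposite direction. Some genes were read at 8 or more in one control and under 6 in the other. Of these, 40 of 56 for LS174T and 74 of 111 for HCT116 met the same rule on the arrays labelled for changed CDX1.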
